A study of Mus musculus with 6 samples.

Results

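The late sterol enzymes described here are Tm7sf2, Ebp, Sc5d and Dhcr7, 4 genes of the 54532 gene rows in the deposited table. They were chosen by symbol, as enzymes that turn demethylated sterols into cholesterol, and each symbol stood in a single row. RNA was sequenced from CD4 T cells of spleen and lymph nodes of mice on a C57BL/6 background. Knockouts carry the genotype iCD4-PRMT5delta/delta, with deleted Prmt5 alleles (replicates 1, 4 and 5), and controls carry iCD4-PRMT5fl/fl, with floxed alleles that are intact (replicates 1, 2 and 4). The labels do not say what iCD4 stands for, which Cre deleted the alleles or how old the mice were. All 6 cultures received plate-bound antibodies to CD3 and CD28 for 48 h and no added cytokine. The title of the series links Prmt5, an arginine methyltransferase, to cholesterol synthesis and Th17 responses, and the comparison asks how these transcripts stand without the enzyme.

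Cholesterol is made from lanosterol by removing methyl groups and then by reducing, shifting and adding double bonds in the sterol ring system. Tm7sf2 encodes a sterol reductase of the endoplasmic reticulum that removes the double bond left when lanosterol loses a methyl group. Ebp encodes the isomerase that moves a ring double bond to its neighbouring position, and Sc5d the desaturase that adds a further one. Dhcr7 encodes the 7-dehydrocholesterol reductase, which gives cholesterol by removing the double bond that Ebp moved and leaving the one Sc5d added. The substrate of Dhcr7 is also the precursor of vitamin D in skin. Genes of this route are known targets of SREBP transcription factors, which are released from the endoplasmic reticulum when sterol is low, and activated T cells are known to raise sterol synthesis as they grow.

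In GRCm38, by GENCODE M21, Tm7sf2 lies on chromosome 19 (6062821 to 6068373, minus strand), Ebp on chromosome X (8185329 to 8193512, minus strand), Sc5d on chromosome 9 (42251595 to 42264256, minus strand) and Dhcr7 on chromosome 7 (143823145 to 143848410, plus strand). The 4 genes are protein coding, and their deposited identifiers are ENSMUSG00000024799.15, ENSMUSG00000031168.14, ENSMUSG00000032018.14 and ENSMUSG00000058454.15. The promoter sequence next to the RefSeq start site (GRCm38.p6) is shown for each, because all 4 genes hold the same short element there. Each line runs 5′ to 3′ on the strand of the gene, with 155 bases before the start site and 5 from it on, and capitals mark the motif matches. The windows are chr19:6067846-6068005 for Tm7sf2, chrX:8193508-8193667 for Ebp, chr9:42264296-42264455 for Sc5d and chr7:143830059-143830218 for Dhcr7.
Tm7sf2: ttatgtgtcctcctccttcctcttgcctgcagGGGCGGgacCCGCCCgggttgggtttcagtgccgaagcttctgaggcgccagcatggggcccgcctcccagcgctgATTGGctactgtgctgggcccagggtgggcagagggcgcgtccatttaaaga
Ebp: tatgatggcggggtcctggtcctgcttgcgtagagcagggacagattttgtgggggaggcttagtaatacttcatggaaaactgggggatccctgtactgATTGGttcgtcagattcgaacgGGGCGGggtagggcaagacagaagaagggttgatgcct
Sc5d: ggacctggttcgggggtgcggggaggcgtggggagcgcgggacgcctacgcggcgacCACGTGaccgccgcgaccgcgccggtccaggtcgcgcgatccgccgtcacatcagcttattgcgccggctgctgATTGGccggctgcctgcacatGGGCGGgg
Dhcr7: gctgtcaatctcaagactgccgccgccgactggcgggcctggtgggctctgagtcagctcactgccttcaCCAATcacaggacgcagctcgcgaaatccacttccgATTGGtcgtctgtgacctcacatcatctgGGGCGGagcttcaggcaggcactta

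The letters searched, on both strands, were the CCAAT box (CCAAT), the GC box (GGGCGG), the E box (CACGTG) and a sterol regulatory element (TCACNCCAC), in RefSeq windows from 250 bases before to 50 after each start site. A CCAAT box on the opposite strand, read as ATTGG above, began 47 bases before the start in Tm7sf2, 55 in Ebp, 24 in Sc5d and 49 in Dhcr7. RefSeq gives Dhcr7 3 start sites, and the one with the most matches is shown. The other windows of Dhcr7, which include that at the start of transcript Dhcr7-201, held no CCAAT box. CCAAT boxes stood in 4 of the 6 windows of these genes and in 37.4% of all 32851 windows, and GC boxes in 5 of 6 and in 35.7%. An E box was found in Sc5d and in another window of Dhcr7, against 7.15% of all windows. The TCACNCCAC element was in none of the 6 windows, against 1.24% of all, which says only that these exact letters are not there. Among the 17 other sterol pathway genes described below, 12 had such a window, and 11 of these had a CCAAT box in any of their windows. A gene can have several windows, so this count per gene is not like the 37.4%, which is a share of single windows. These are letter matches and not binding sites.

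**Figure D1:**
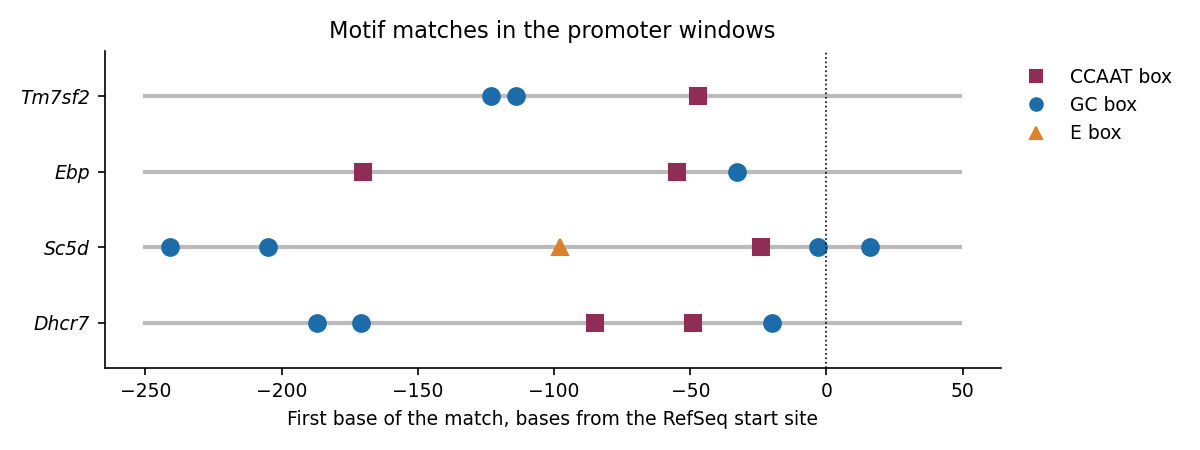
Positions of CCAAT boxes (squares), GC boxes (circles) and E boxes (triangle) in 1 promoter window of each gene; the x axis gives the first base of the match in bases from the RefSeq start site (dotted line), and the grey bars span the window. In the window shown, each gene has a CCAAT box that begins between 24 and 55 bases before the start. The other windows of Dhcr7 have no CCAAT box.

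Gene counts per library lay between 29623513 and 39832588, and ERCC spike-in RNAs made up between 0.566% and 1.35% of counts. Prmt5 stood at 41.1, 34.2 and 36.7 CPM (read counts scaled to the size of the library) in knockouts 1, 4 and 5, against 134, 133 and 98.2 CPM in controls 1, 2 and 4, with reads left in every knockout and no overlap. Its log2 fold change was -1.58 with the tag described next as a term (SE 0.09, edgeR adjusted p = 0.00312) and -1.70 on genotype alone (adjusted p = 0.109). The column names carry a tag, CCPF22 for knockout 1 and controls 1 and 2, and CCPF24 for knockouts 4 and 5 and control 4; what it marks is not stated in the labels. The first principal component of the 2000 most variable genes (42.2% of the variance) parted the tags and not the genotypes. On the second (37.3%), the knockouts lay at -31.5, 6.59 and -36.1 and the controls at 9.25, 16.6 and 35.3, with no overlap. The CD4 T cell markers Cd4, Cd3d, Cd3e, Cd3g and Trac were present in all 6 libraries, summing to between 685 and 926 CPM in knockouts and between 648 and 797 CPM in controls. Both CD8 T cell markers were also found in all 6, at sums of 9.0 to 19.6 CPM in knockouts and 7.08 to 15.4 CPM in controls. The 6 B cell markers summed to between 34.9 and 88.7 CPM in knockouts and between 35.5 and 74.7 CPM in controls, and all 6 were present in every library. Of 7 macrophage and dendritic cell markers 6 were present in every library, at sums of 7.70 to 28.0 CPM in knockouts and 4.93 to 8.53 CPM in controls, and 3 of 4 NK cell markers were, at sums of 2.57, 0.898 and 3.02 CPM in knockouts 1, 4 and 5 and 0.855, 0.756 and 1.27 CPM in controls 1, 2 and 4. Of 3 erythroid markers 2 were at 0 in all libraries and the list summed to at most 0.0951 CPM. The macrophage and dendritic cell sums of knockouts 1 and 5 (12.1 and 28.0 CPM) and their NK cell sums were above those of every control; their part in the results was not tested beyond the fits without those libraries. In bulk libraries fewer cells of a type and less RNA per cell cannot be told apart.

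Tm7sf2, the reductase that follows lanosterol demethylation, had the lowest mean level of the 4 genes in both genotypes and the most negative log2 fold change in both fits over all 6 libraries. Neither rank held throughout, since Dhcr7 was the lower in control 4, and without knockout 1 the fold change on genotype alone was -1.55 for Tm7sf2 and -1.89 for Dhcr7. It had 3.96, 3.82 and 4.87 CPM in knockouts 1, 4 and 5, against 10.98, 11.1 and 15.8 CPM in controls 1, 2 and 4. The knockouts lay close together and all below the lowest control, and control 4 was the highest library. The means were 4.22 ± 0.570 CPM in knockouts and 12.6 ± 2.75 CPM in controls (SD, n = 3 each). These rest on 125, 132 and 153 reads in knockouts and 334, 367 and 610 reads in controls. The smallest, 125 reads, has an exact Poisson 95% interval of 104 to 149 reads, which covers counting error only.

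Ebp, the isomerase gene, differed least. It had 25.01, 23.0 and 24.4 CPM in knockouts 1, 4 and 5, against 33.3, 30.6 and 28.3 CPM in controls 1, 2 and 4. The groups did not overlap, but the gap between the highest knockout and the lowest control was small. The means were 24.1 ± 1.02 CPM in knockouts and 30.7 ± 2.50 CPM in controls (SD, n = 3 each). The reads behind them numbered 789, 795 and 766 in knockouts and 1012, 1011 and 1091 in controls.

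Sc5d, the desaturase gene, was the most abundant of the 4 by read count. Its level was 60.7, 61.0 and 61.1 CPM in knockouts 1, 4 and 5, against 107, 108 and 80.4 CPM in controls 1, 2 and 4. The 3 knockouts were nearly level with each other across both tags, while control 4 stood below the other two controls and above every knockout. The means were 60.9 ± 0.232 CPM in knockouts and 98.5 ± 15.7 CPM in controls (SD, n = 3 each). They rest on 1914, 2107 and 1919 reads in knockouts and 3264, 3562 and 3101 reads in controls. The 1914 reads of knockout 1 have an exact Poisson 95% interval of 1829 to 2002 reads. Counting error alone is thus wider than the spread of the knockouts, and their closeness is not read as a result.

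Dhcr7, of the last step, varied more with the tag than with the genotype. It had 24.5 CPM in knockout 1 and 6.63 and 7.29 CPM in knockouts 4 and 5, against 35.9 and 27.3 CPM in controls 1 and 2 and 13.8 CPM in control 4. The groups overlapped, since knockout 1 lay above control 4, but within each tag every knockout was below every control. The means were 12.8 ± 10.1 CPM in knockouts and 25.7 ± 11.1 CPM in controls (SD, n = 3 each). Knockouts 1, 4 and 5 had 772, 229 and 229 reads, and controls 1, 2 and 4 had 1092, 903 and 532.

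As a share of the reads of all 4 genes in a library, Tm7sf2 made up 3.47%, 4.05% and 4.99% in knockouts 1, 4 and 5, against 5.86%, 6.28% and 11.4% in controls 1, 2 and 4. Ebp made up 21.9%, 24.4% and 24.98% in knockouts, against 17.7%, 17.3% and 20.5% in controls, so that its share was higher in every knockout. Sc5d held more than any other gene of the 4 in every library, from 53.2% to 64.6% in knockouts and from 57.2% to 61.0% in controls. The share of Dhcr7 was 21.4%, 7.02% and 7.47% in knockouts, against 19.2%, 15.5% and 9.97% in controls, and the genotypes overlapped. The 4 shares of a library add up to the whole, so they are not independent of each other.

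**Figure D2:**
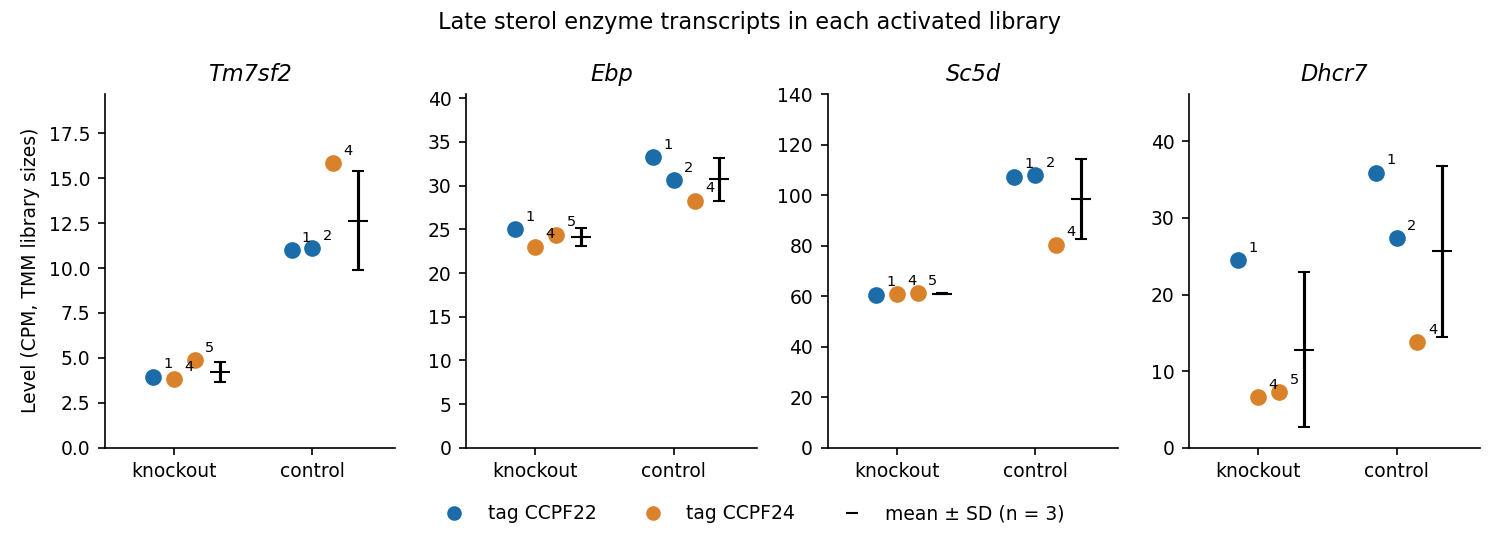
Level in CPM (y axes, from 0, each gene on its own scale) of the 4 transcripts in each library, knockouts left of controls, with replicate numbers, colours for the tag in the column names and a black mark for the mean and SD of 3 libraries. Tm7sf2, Ebp and Sc5d have no overlap between genotypes, and Dhcr7 separates by tag, with knockout 1 at 24.5 CPM above control 4 at 13.8 CPM.

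By edgeR's quasi-likelihood test with genotype as the single term, 0 of the 4 genes passed an adjusted p of 0.05, and 0 of the 15685 genes tested did (0%). At an unadjusted p under 0.05 there were 3 of the 4 (Tm7sf2, Sc5d and Ebp) and 1780 of all genes, and DESeq2 called 345 genes, Tm7sf2 and Sc5d among them. The log2 fold changes, knockout over control, were -1.58 for Tm7sf2 (SE 0.23, edgeR adjusted p = 0.188), -0.69 for Sc5d (SE 0.15, edgeR adjusted p = 0.256), -0.35 for Ebp (SE 0.14, edgeR adjusted p = 0.414) and -1.004 for Dhcr7 (SE 0.57, edgeR adjusted p = 0.569). Knockouts were all below controls for 3 of the 4 genes, against 8.68% of all genes tested.

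With the tag as a term beside genotype, Tm7sf2 and Sc5d fell in knockouts, while Ebp and Dhcr7 did not pass. That is 2 of 4 genes, where 3.63% of all genes tested were called lower. Its log2 fold change for Tm7sf2 was -1.68 (SE 0.18, edgeR adjusted p = 0.0122), which is 0.313 times the control level. For Sc5d it was -0.61 (SE 0.11, edgeR adjusted p = 0.0321), or 0.655 times the control level. Dhcr7 had -0.67 (SE 0.18, edgeR adjusted p = 0.0644) and Ebp -0.30 (SE 0.11, edgeR adjusted p = 0.126). Inside CCPF22 and inside CCPF24 the differences, which have no test, were -1.46 and -1.86 for Tm7sf2, -0.83 and -0.40 for Sc5d, -0.35 and -0.25 for Ebp, and -0.36 and -0.98 for Dhcr7.

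The tag-term calls depended on single libraries. That of Tm7sf2 ended without control 2 (edgeR adjusted p = 0.0559), without control 4 (0.239) and without knockout 1 (0.0707), at log2 fold changes between -1.89 and -1.49. That of Sc5d ended without control 1 (0.0679), control 2 (0.109), control 4 (0.239) or knockout 1 (0.116). Without control 4, CCPF24 holds no control, so genotype rests on knockout 1 against controls 1 and 2. Without knockout 1, CCPF22 holds no knockout, so genotype rests on control 4 against knockouts 4 and 5. Each of these fits thus lacks the comparison inside a tag and has a lone library on 1 side, which limits what its p-value says. Without knockouts 1 and 5, whose myeloid sums are the highest, the log2 differences were -2.04 for Tm7sf2, -1.05 for Dhcr7 and -0.40 for Sc5d, in a fit chosen after seeing the data. That fit sets knockout 4 against control 4 and takes its spread from controls 1 and 2, so its p-values assume that the lone knockout varies like them and are not read here (it called 1511 genes).

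**Figure D3:**
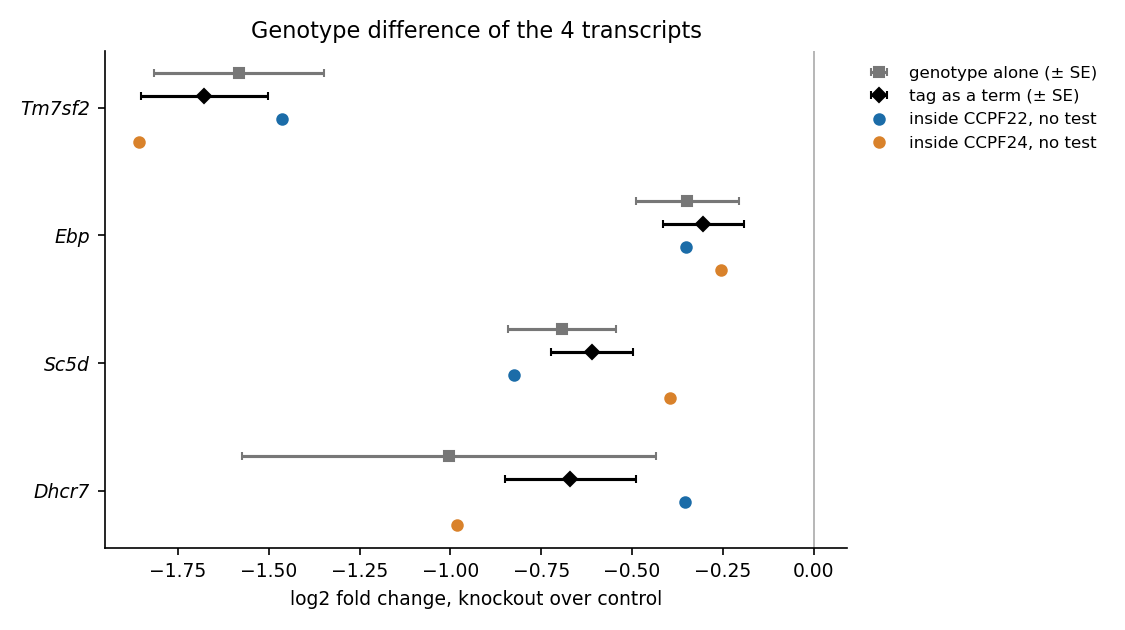
Log2 fold change, knockout over control (x axis), of each gene in the fit on genotype alone (squares, ± SE), in the fit with the tag as a term (diamonds, ± SE) and inside each tag (circles, no error). All values are negative, from -0.25 for Ebp inside CCPF24 to -1.86 for Tm7sf2 inside CCPF24.

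Of the 4 genes, Dhcr7 passed for the tag coefficient of the same fit. It was lower in CCPF24 than in CCPF22 libraries, with a log2 fold change of -1.50 (edgeR adjusted p = 0.00225). Tm7sf2 had 0.34, Ebp -0.13 and Sc5d -0.21, and none of these passed (edgeR adjusted p = 0.170, 0.416 and 0.196). That 1 of 4 was lower in CCPF24 compares with 16.5% of all genes tested. Srebf2, which encodes the SREBP factor that drives sterol genes, had -1.42 (edgeR adjusted p = 0.00163).

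Srebf2 stood at 265, 104 and 94.9 CPM in knockouts 1, 4 and 5, against 295, 227 and 97.6 CPM in controls 1, 2 and 4. Like Dhcr7 it was high in the 3 CCPF22 libraries and low in the 3 CCPF24 libraries. Its genotype difference with the tag as a term was 0.02 (SE 0.12, edgeR adjusted p = 0.914), beside the -0.67 of Dhcr7.

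**Figure D4:**
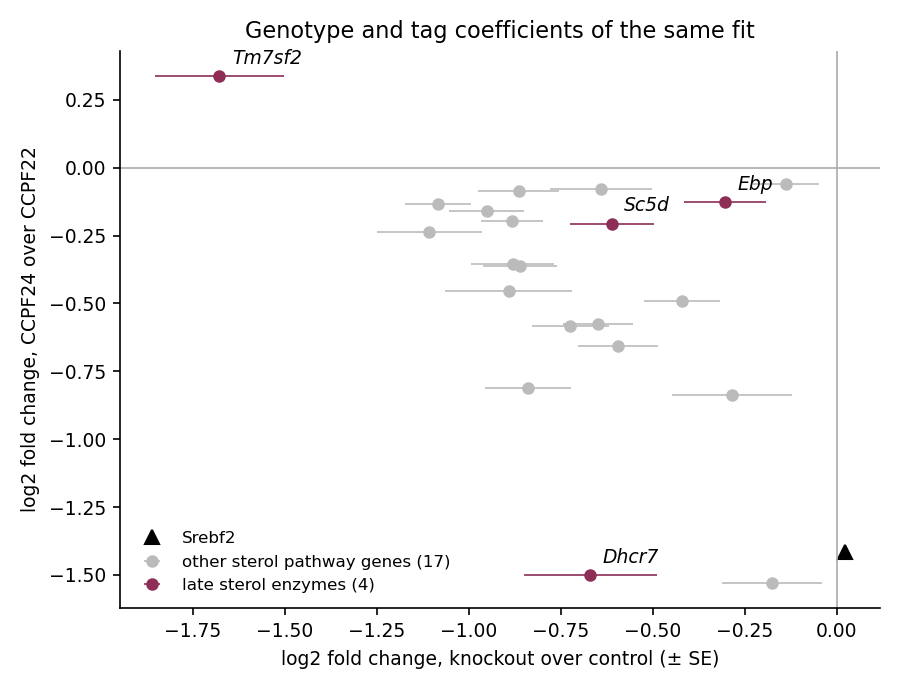
Genotype coefficient (x axis, log2 knockout over control, ± SE) against tag coefficient (y axis, log2 CCPF24 over CCPF22) of the edgeR fit with both terms, for the 4 late sterol enzymes, 17 other sterol pathway genes and Srebf2. Tm7sf2 lies farthest left, at -1.68, and Dhcr7 near the bottom, at -1.50 on the y axis, close to the tag coefficient of Srebf2.

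Whether the genes differed by unequal amounts was tested with the log2 ratio of read counts of each pair within a library, which needs no library scaling. With 3 libraries against 3 the exact two-sided permutation test cannot go below p = 0.1, so no pair could pass. Of 6 pairs, 3 had knockouts and controls that did not overlap. All 3 are drawn from Tm7sf2, Ebp and Sc5d, so they are not independent of each other. The share of such pairs over all genes was not computed. The ratio of Tm7sf2 to Ebp was -2.66, -2.59 and -2.32 in knockouts 1, 4 and 5, against -1.60, -1.46 and -0.84 in controls 1, 2 and 4, and its mean difference was -1.22 (exact permutation p = 0.1, adjusted p = 0.2). Tm7sf2 was thus scarcer relative to Ebp in every knockout than in every control. For Tm7sf2 to Sc5d the mean difference was -0.89 (exact permutation p = 0.1, adjusted p = 0.2), and it was -0.65 inside CCPF22 and -1.48 inside CCPF24. Ebp to Sc5d was higher in all knockouts, with a mean difference of 0.33 (exact permutation p = 0.1, adjusted p = 0.2). The 3 pairs with Dhcr7 overlapped, with mean differences of -0.40 for Tm7sf2, 0.83 for Ebp and 0.49 for Sc5d (exact permutation p = 0.7, 0.3 and 0.6). Inside CCPF22 and CCPF24, Tm7sf2 to Dhcr7 differed by -1.12 and -0.89, and within each tag every knockout was below every control. For Ebp to Dhcr7 the values inside the tags were 0.0048 and 0.73, and for Sc5d to Dhcr7 they had opposite signs, -0.47 and 0.59.

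Levels between genes were compared as CPM per kilobase of merged exons in GENCODE M21. In knockouts the order of mean levels was Sc5d at 12.5 ± 0.0476, Ebp at 10.5 ± 0.440, Dhcr7 at 2.20 ± 1.74 and Tm7sf2 at 0.958 ± 0.129 CPM per kilobase (SD, n = 3). The SD of Sc5d in knockouts is smaller than its counting error, as said above. In controls it was Sc5d at 20.2 ± 3.22, Ebp at 13.3 ± 1.08, Dhcr7 at 4.41 ± 1.92 and Tm7sf2 at 2.87 ± 0.626 CPM per kilobase (SD, n = 3). Dhcr7 and Tm7sf2 were not apart beyond their spread in either genotype, and in control 4 Tm7sf2 (3.59) was above Dhcr7 (2.37). With the gene lengths in the deposited table, Ebp at 13.8 ± 0.583 stood above Sc5d at 12.7 ± 0.0484 CPM per kilobase in knockouts, so the order of that pair depends on the gene model. Tm7sf2 shares 532 exon bases with Vps51 on the same strand in GENCODE M21, and no source used here says how shared reads were counted. Vps51 had 199, 317 and 282 reads in knockouts 1, 4 and 5 and 127, 133 and 240 reads in controls 1, 2 and 4.

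The rest of the sterol pathway was lower in knockouts as well. Of 17 other genes of the route, from acetyl-CoA to cholesterol, 17 had a negative log2 fold change in both fits. On genotype alone 0 passed by edgeR, 14 had an unadjusted p under 0.05 and DESeq2 called 11 lower. Over all genes, 1780 had such an unadjusted p in either direction, and DESeq2 called 132 lower. With the tag as a term 13 fell and 0 rose, with 3.63% of all genes tested called lower. The 13 became 0 without knockout 1, control 2 or control 4, 8 without control 1 and 3 with ERCC scaling. The fits without knockout 1 or control 4 lack the comparison inside a tag, as said above. Their median log2 fold change was -0.94 on genotype alone and -0.84 with the tag, beside -0.85 and -0.64 for the 4 late enzymes and 0.01 and 0.02 for all genes tested. The 4 pathway genes with the smallest p were Msmo1, a sterol methyl oxidase (-1.08), Fdft1, which makes squalene (-0.88), Pmvk, phosphomevalonate kinase (-0.95), and Acat2, which joins acetyl-CoA units (-0.86), all with the tag as a term (edgeR adjusted p between 0.00913 and 0.0152). Their difference was less negative than the -1.68 of Tm7sf2, and more negative than those of Ebp, Sc5d and Dhcr7.

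The relatives of the 4 enzymes did not move as a block. Lbr, the lamin B receptor, carries the same sterol reductase domain as Tm7sf2. It had 276, 269 and 287 CPM in knockouts 1, 4 and 5, against 321, 316 and 292 CPM in controls 1, 2 and 4. All knockouts were lower, but the log2 fold change with the tag as a term was -0.14 (SE 0.09, edgeR adjusted p = 0.353), beside -1.68 for Tm7sf2. Ebpl, a paralog of Ebp, averaged 5.83 ± 1.22 CPM in knockouts and 5.35 ± 0.697 CPM in controls (SD, n = 3 each; edgeR adjusted p = 0.960). Tmem97, a membrane protein of the same domain family as Ebp, averaged 56.7 ± 13.4 CPM in knockouts and 89.8 ± 6.05 CPM in controls (SD, n = 3 each; log2 fold change -0.68, edgeR adjusted p = 0.0587). Of the hydroxylase family of Sc5d, Msmo1 fell, and Ch25h did not pass the filter on low counts, at no more than 0.164 CPM in any library.

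Of 15 genes of sterol sensing and uptake, 3 fell and 0 rose with the tag as a term (edgeR), and 0 passed on genotype alone, where 4 had an unadjusted p under 0.05. Over all genes tested 3.63% were called lower with the tag, and 1780 of 15685 had an unadjusted p under 0.05 on genotype alone. The 3 that fell were Insig1, which retains the SREBP complex in the endoplasmic reticulum (-0.77, edgeR adjusted p = 0.0168), Stard4, a sterol carrier (-0.80, edgeR adjusted p = 0.0230), and Srebf1 (-0.46, edgeR adjusted p = 0.0425). The median was -0.29 on genotype alone and -0.26 with the tag.

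The authors' deposited table also compares resting (rest) with activated (act) cells within each genotype, as rest over activated, so that a negative value means a higher level after activation. For Tm7sf2 the authors' deposited table gives 1.001 in knockouts (adjusted p = 7.84e-05) and -0.78 in controls (adjusted p = 0.00150). Its level was thus lower after activation in knockouts and higher after activation in controls. For Ebp the authors' deposited table gives -0.49 in knockouts (adjusted p = 8.82e-05) and -0.83 in controls (adjusted p = 9.32e-12), and both pass.

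For Sc5d the authors' deposited table gives -0.25 in knockouts (adjusted p = 0.132) and -1.02 in controls (adjusted p = 2.95e-11). For Dhcr7 the authors' deposited table gives -0.27 in knockouts (adjusted p = 0.541) and -1.20 in controls (adjusted p = 0.00503). Thus 1 of the 4 genes (Ebp) passed as higher after activation in knockouts and 4 of 4 in controls, and Tm7sf2 passed as lower in knockouts. For comparison, the authors' deposited table calls 25.7% of genes higher after activation in knockouts and 27.6% in controls, and 35.3% lower in knockouts. Among the 17 other pathway genes the counts in the authors' deposited table are 15 and 17, with medians of -1.13 in knockouts and -2.37 in controls. The resting libraries were not analysed here, so the difference between the genotypes in these values was not tested.

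**Figure D5:**
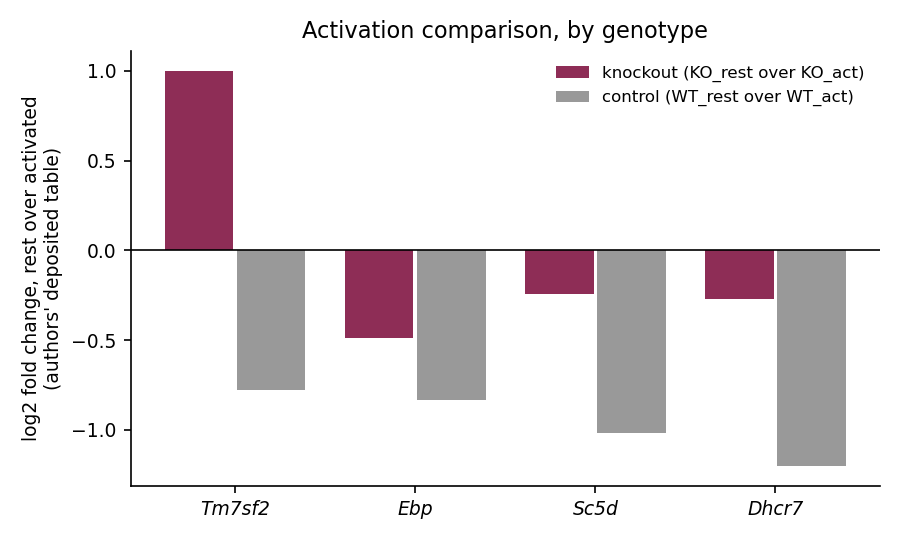
Log2 fold change of resting over activated cells (y axis) from the authors' deposited table, for knockouts (dark bars) and controls (grey bars). Tm7sf2 has 1.001 in knockouts and -0.78 in controls, and the other genes are negative in both genotypes and nearer to 0 in knockouts.

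In resting cells the authors' deposited table gives all 4 genes an adjusted p near 1 and a log2 fold change near 0, control over knockout. That comparison has 99.9% of 19941 genes within 0.001 of 0 and 0.0150% called, so the deposited fold changes are of no use as sizes there. In activated cells the authors' deposited table gives control over knockout log2 fold changes of 1.55 for Tm7sf2 (adjusted p = 1.4e-08), 0.67 for Sc5d (0.000148), 0.33 for Ebp (0.0201) and 0.18 for Dhcr7 (0.167). It thus calls 3 of the 4 as lower in knockouts, where 2.94% of its genes are called so. In this comparison 4.09% of genes lie within 0.001 of 0, far fewer than at rest. Its median absolute log2 fold change is 0.042, against 0.87 and 1.06 for activation in knockouts and in controls. How these fold changes were computed is not stated, so their sizes are not set beside those of edgeR.

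Genes whose log2 CPM over the 6 libraries ran closest to each enzyme were sought among 9332 genes with a mean of at least 5 CPM, by Pearson's r as a description. For Tm7sf2 they were Isoc2a (r = 0.996), Mmab (0.995) and Mrpl17 (0.992). For Ebp they were Cops6 (0.995), Dctn2 (0.993) and Babam1 (0.990), and for Sc5d Pikfyve (0.990), Taf1 (0.988) and Usp9x (0.986). For Dhcr7 they were Ppm1l (0.997), N4bp2 (0.996) and Slc52a2 (0.996). Among the enzymes themselves, Ebp and Sc5d were most alike (r = 0.961) and Tm7sf2 and Dhcr7 least (r = 0.486). The 6 points of each r share tags and genotypes, so an r over them is not evidence of a link between genes.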

How the data were processed

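Stranded libraries were made after removal of ribosomal RNA, per the labels' protocols. Raw counts of reads for each gene were taken from the deposited table, where the header calls them raw. Per the submitters' processing notes the tools were STAR, featureCounts, DESeq2 and DESeq and the build was GRCm38.p3, with no role, order or version. The log2 fold changes and adjusted p-values quoted as the authors' are from the deposited table, first named group over second, and their method is not stated. Another 12 columns, with values of single samples, were left unused.

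The 92 ERCC rows entered neither the library sizes nor the tests. The filter on low counts (filterByExpr, edgeR 4.0.16, with a count of at least 10 and a total of at least 15) kept 15685 genes, which were scaled with TMM. They were fitted with glmQLFit, tested two-sided with glmQLFTest on genotype alone and with the tag as a term, and adjusted by Benjamini-Hochberg over all genes at 0.05. The script was tested on simulated data. Standard errors are the fold change over the square root of F. Differences inside a tag and likeness used log2 CPM with a prior count of 2. Alternatives were RLE factors, ERCC scaling, no filter, DESeq2 1.42.0, a replicate block and leaving out libraries, all named in the closing section. R 4.3.3, limma 3.58.1, Python 3.11.15 and scipy 1.17.1 were used. Promoter sequences are those of RefSeq (GRCm38.p6), and all 4 genes matched by symbol. Of the gene identifiers 53230 matched GENCODE M21; that of Tm7sf2 matched without its version.

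The members, gene lists and both fits were chosen with earlier results of these data known. Leaving out knockouts 1 and 5 together was an alternative added after the data had been seen. Named genes were the 4 enzymes, their relatives, the 4 other pathway genes with the smallest p with the tag as a term, 5 regulators (1 is not reported here), Prmt5 and the 3 genes most like each enzyme. Faxdc2, listed as a relative of Sc5d, was not analysed here. The series describes its replicates as biological.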

Additional observations from a re-analysis of the deposited data

How the results depend on the processing

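No fold change of the 4 enzymes changed sign under any alternative run. ERCC scaling moved the median of all genes to -0.59 on genotype alone and -0.44 with the tag as a term, and the values under it below include this shift. On genotype alone, Tm7sf2 passed at -2.15 with ERCC scaling, -1.61 without the filter, -1.61 by DESeq2, -1.76 with the replicate block and -1.68 with the tag as a term. Sc5d passed at -0.72 without the filter, -0.72 by DESeq2, -0.61 with the replicate block and -0.61 with the tag. Dhcr7 passed at -1.67 with ERCC scaling, -1.04 without the filter and -0.80 with the replicate block, and Ebp passed in none of them. The replicate block takes genotype only from replicate numbers that both genotypes share, and the labels do not say that such libraries were paired. Little is then left to estimate the spread, so the passes and the count of genes called with this block are weak tests. RLE factors changed no call of the 4 enzymes and no pathway count, and called 0 genes on genotype alone and 1034 with the tag. The genes called by edgeR on genotype alone numbered 273 with ERCC scaling, 720 without the filter, 768 with the replicate block and 1020 with the tag, and 345 by DESeq2; other pathway genes called lower numbered 12, 12, 12, 13 and 11 in that order.

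With the tag as a term (1020 genes, 13 pathway genes), Sc5d lost its call at -1.07 with ERCC scaling, and Dhcr7 passed at -0.70 without the filter and at -0.70 by DESeq2. Without knockouts 1 and 5, Sc5d had -0.40 and Dhcr7 -1.05, but with 1 knockout left this fit is no test of either. The calls numbered 393 with ERCC scaling (3 pathway genes), 2944 without the filter and 2290 by DESeq2. The causes were not tested.

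Leaving out each library gave, on genotype alone, -1.70 to -1.39 for Tm7sf2, -0.41 to -0.30 for Ebp, -0.83 to -0.64 for Sc5d and -1.89 to -0.69 for Dhcr7, with 0 genes and 0 pathway genes called. With the tag it gave -1.89 to -1.49, -0.36 to -0.28, -0.83 to -0.42 and -1.01 to -0.38 in the same order. Genes called ran from 0 without control 4 or knockout 1 (3 without control 2, 149 without control 1) to 2056 without knockout 4, and pathway genes from 0 (8 without control 1) to 14. Without control 4 this fit has no control in CCPF24, and without knockout 1 no knockout in CCPF22. Genotype is then compared inside the other tag alone. The ratio of Tm7sf2 to Dhcr7 (-0.40) turned to 0.25 without knockout 1 and 0.17 without control 4, and ran from -0.78, while it was -1.12 and -0.89 inside the tags. The other ratios kept their sign when a library was left out, at -1.37 to -0.99 for Tm7sf2 to Ebp, -1.05 to -0.58 for Tm7sf2 to Sc5d, 0.26 to 0.42 for Ebp to Sc5d, 0.52 to 1.41 for Ebp to Dhcr7 and 0.15 to 1.10 for Sc5d to Dhcr7, which was -0.47 inside CCPF22. Adding 0.5 to the counts left every sign.

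Replicate numbers 1 and 4 are shared by both genotypes, and their deviations from the group means correlated at 0.58 and 0.43, but they also share a tag, and pairs that share a tag and no number correlated at 0.40 (knockout 1, control 2) and 0.41 (knockout 5, control 4). Number and tag cannot be told apart in these pairs. The fit with the replicate block compares genotype inside numbers 1 and 4 alone, since knockout 5 and control 2 have no partner of the same number. At 125 to 610 reads a library, counting error limits Tm7sf2 most of the 4.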
